A study of Mus musculus with 12 samples.

Results

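The 9 genes described here mark the basal and myoepithelial layer of the mammary epithelium. They were chosen by name as the basal keratins Krt5, Krt14, Krt15 and Krt17, the basal transcription factor Trp63, the laminin chain gene Lamb3, the contractile genes Acta2 and Myh11, and the oxytocin receptor gene Oxtr. All 9 had a row among the 23406 genes of the deposited table, and 8 passed the filter used for testing, a mean of at least 0.5 CPM (reads scaled to a common library size) over all libraries. Krt15 did not pass. RNA was sequenced from 12 libraries of C57BL/6J mouse mammospheres at passage 2, which are spheres that mammary cells form in suspension culture. There were 4 groups of 3 libraries: wild-type (WT) mice aged 2 months (young) or 12 months (aged), and p66Shc knockout (KO) mice of the same ages. The knockout removes the longest protein isoform of Shc1, and the labels name no other allele or treatment. The series title ties p66Shc, p53 and Insc to the division mode of aged mammary stem cells. The design text counts 3 young and 3 aged mice, and nothing used here says that each library came from its own animal and culture, so p-values measure the spread between these libraries.

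Mammary ducts have an inner luminal layer and an outer basal layer that rests on the basement membrane. Basal cells make p63 and the keratins 5, 14 and 17, and they secrete laminin-332, which holds the chains encoded by Lama3 and Lamb3 and binds the integrin of hemidesmosomes. Differentiated basal cells, the myoepithelial cells, also carry smooth muscle actin and smooth muscle myosin and contract when oxytocin binds its receptor, which ejects milk. The contractile genes are not specific to them, since smooth muscle cells, pericytes and myofibroblasts use the same genes. Mammospheres are assayed for cells with stem and progenitor properties, many of which are basal in the mouse.

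Promoter sequences of a keratin gene and of a contractile gene are shown because these genes went different ways with age in KO mammospheres. Each is the 250 bases before the gene's start in RefSeq (build GRCm38.p6), read 5′ to 3′ on the gene's strand, with motif matches in capitals. The motifs, searched on both strands, were the p53-family decamer to which p63 also binds, the CArG box bound by serum response factor together with its form carrying a single G or C in the A/T core, and TATAA.
Krt5, chr15:101712906-101713155, minus strand: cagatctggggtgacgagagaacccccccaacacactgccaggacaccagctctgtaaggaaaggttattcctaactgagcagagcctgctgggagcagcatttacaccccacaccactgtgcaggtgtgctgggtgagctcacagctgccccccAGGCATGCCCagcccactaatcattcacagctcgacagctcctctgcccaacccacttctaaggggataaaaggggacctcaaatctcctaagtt
Acta2, chr19:34255374-34255623, minus strand: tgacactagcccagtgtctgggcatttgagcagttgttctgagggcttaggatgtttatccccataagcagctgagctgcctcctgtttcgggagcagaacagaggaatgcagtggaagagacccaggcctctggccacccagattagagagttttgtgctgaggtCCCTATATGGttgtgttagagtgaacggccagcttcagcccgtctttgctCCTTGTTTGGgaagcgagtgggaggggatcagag
The Krt5 window held 1 p53-family decamer, AGGCATGCCC, starting at position -95 from the start, and of 32851 promoter windows from 250 bases before to 50 after a start, 8.36% held such a match. The Acta2 window held 2 CArG boxes with a single G or C in the core, CCCTATATGG at -84 and CCTTGTTTGG at -34, and a TATAA that began 10 bases past the start, outside the printed stretch. Such CArG variants occurred in 8.50% of windows, the unaltered CArG box in 1.63% and TATAA in 24.9%. The RefSeq windows of Oxtr and Lamb3 held none of these letters, nor did the window listed for Krt14, which lies inside the deposited gene model. The AP-1 motif TGANTCA, held by 7.81% of windows, was in none of the windows of these 5 genes. No sequence was printed for Trp63, Krt15, Krt17 and Myh11.

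The libraries held 31845169 to 109079737 reads in genes, and 3 reads stood for 0.029 to 0.0859 CPM. Shc1, read as a check of the labels, was 296 ± 25.3, 211 ± 8.44, 208 ± 0.329 and 169.9 ± 7.60 CPM in young WT, aged WT, young KO and aged KO. It was lower in KO at both ages (with an adjusted p of 0.000133 and 0.000593), and as all its isoforms are summed it checks the labels only in part. By a chi-square per degree of freedom on read counts, replicate 1 of young WT (67.9 and 45.4) differed most from the replicates of its group. Replicate 3 of aged KO (36.1 and 34.9) did so in its own group. This measure grows with depth, and replicate 3 of aged KO is the deepest library, so its values are not comparable with those of the other libraries. The age and genotype comparisons share libraries, so their values stand side by side and are not independent of each other.

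The levels of the members differed widely. Divided by exonic length, the mean over the 12 libraries was 20.6 CPM per kb for Acta2, 17.0 for Krt14, 9.36 for Krt17, 6.86 for Lamb3, 2.01 for Krt5, 1.21 for Myh11, 0.315 for Oxtr and 0.211 for Trp63. Thus the transcription factor and the receptor were the rarest of the tested members. The luminal keratin Krt18 had group means of 64.9 to 801 CPM per kb in the same libraries. Krt15, a keratin of basal progenitor-type cells in several stratified epithelia, had 48 reads in all 12 libraries together. Its reads were 1, 1 and 1 in young WT, 6, 2 and 1 in aged WT, 0, 4 and 0 in young KO and 3, 17 and 12 in aged KO. Replicate 2 of aged KO held 17 of these reads. Exact two-sided permutation p-values for Krt15 were 0.1 for age in WT and 0.2 for age in KO, with 0.1 the lowest value possible for 3 libraries against 3. Fitted without the filter, limma called Krt15 higher with age in KO by 0.38 (with an adjusted p of 0.0363) and not in WT (0.09, adjusted p of 0.638), at levels of which many lie near or under 3 reads.

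**Figure D1:**
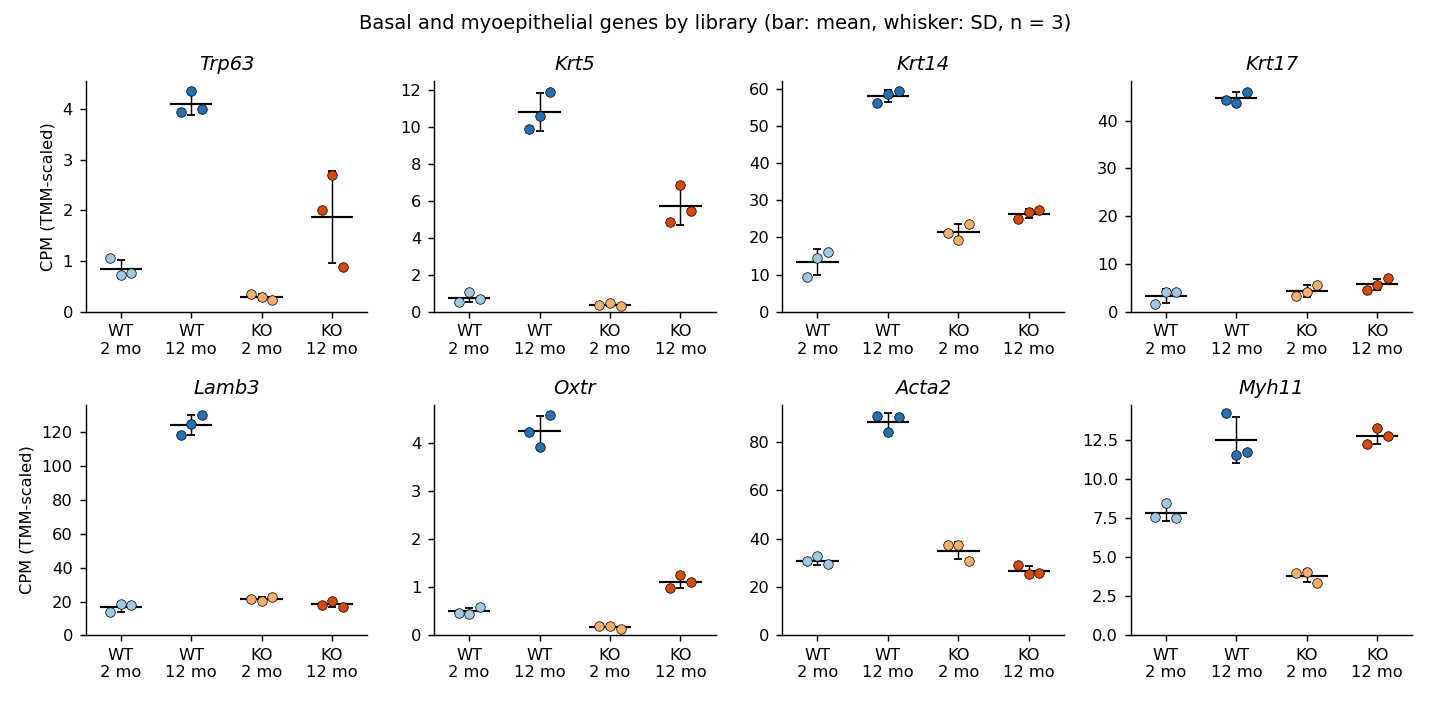
Deposited CPM (vertical axes, linear, from 0) of the 8 tested members in each library, with the mean and SD of the 3 libraries per group. All 8 genes are higher in aged than in young WT, whereas in KO Trp63, Krt5, Oxtr and Myh11 are higher at 12 months. For each gene shown except Myh11, every KO library lies below the aged WT libraries.

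With age in WT mammospheres, each of the 8 tested members rose, by log2 fold changes from 0.64 for Myh11 to 3.65 for Krt17. Among all 13961 genes tested 22.3% were called higher in this comparison, 35.6% lower and 58.0% in either direction. In KO mammospheres 4 of the 8 rose with age, namely Krt5, Myh11, Trp63 and Oxtr, against 32.9% of all genes. Acta2 fell, as did 34.2% of all genes (67.0% changed either way), and Krt14, Krt17 and Lamb3 did not pass the test. The libraries of the ages did not overlap for 8 of 8 members in WT, all higher, where 24.2% of all genes were higher without overlap, 38.0% lower and 62.3% either. In KO 5 members were higher and 2 lower without overlap, beside 35.3%, 37.7% and 72.9% of all genes. For Lamb3, 1 of the 2 lower, the nearest libraries were at 20.534 CPM (replicate 2 of young KO) and 20.505 CPM (replicate 2 of aged KO). The median log2 fold change of the 8 was 2.18 in WT and 0.82 in KO, beside -0.08 and -0.02 over all genes tested. Trp63, Krt5 and Oxtr passed the filter through the groups in which they were high, since their means in young KO lay under 0.5 CPM, so the counts and medians describe these genes and support no direction. Values after ± are SDs of 3 libraries for CPM and standard errors for log2 fold changes, which come from limma on log2(CPM + 0.5). A call means an adjusted p under 0.05. In bulk RNA, fewer cells of a type and less RNA per cell cannot be told apart.

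Trp63 encodes p63, the transcription factor that stratified and basal epithelia need to form. It lies on chromosome 16 (25683764 to 25892088, plus strand, mm10, as for all gene coordinates here). Its level in replicates 1, 2 and 3 was 1.05, 0.718 and 0.757 CPM in young WT and 3.94, 4.35 and 4.01 CPM in aged WT. In KO it was 0.352, 0.281 and 0.231 CPM at 2 months and 2.01, 2.69 and 0.890 CPM at 12 months. The ages did not overlap in either genotype, but replicate 3 of aged KO, at 92 reads in the deepest library, lay well under replicates 1 and 2. Trp63 rose in WT by 1.78 ± 0.23, at an adjusted p of 1.62e-05, and in KO by 1.51 ± 0.23, at an adjusted p of 6.44e-05. These values depend on the pseudocount: the KO rise of Trp63 was 1.10 with a pseudocount of 1, 2.23 with 0.1 and 2.71 with DESeq2, and the WT rise 1.47, 2.17 and 2.36. The age change in KO minus that in WT, the interaction, was -0.28 ± 0.32 (with an adjusted p of 0.482), and it was 0.07 without replicate 3 of aged KO. Aged KO lay under aged WT by 1.04 (with an adjusted p of 0.00118). At 2 months, where KO libraries held 9 to 13 Trp63 reads, the difference was -0.76 ± 0.23 (with an adjusted p of 0.0375), and TMM over all 12 libraries lost this call (with an adjusted p of 0.0676), as did leaving out any 1 of the 9 libraries that are not aged KO (0.0508 to 0.119). A pseudocount of 1, no filter, quantile scaling and edgeR lost it too (0.074, 0.066, 0.139 and 0.06475). Transcripts from the gene's alternative promoters, which give p63 proteins with and without the transactivation domain, are summed in these values.

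Krt5, the type II keratin that pairs with keratin 14 in basal cells, had the largest age rise of the members in KO. Krt5 (chromosome 15, 101707069 to 101712891, minus strand) was 0.540, 1.05 and 0.715 CPM in young WT and 9.86, 10.6 and 11.9 CPM in aged WT. In young KO it was 0.379, 0.453 and 0.309 CPM and in aged KO 4.84, 6.87 and 5.45 CPM. So aged KO lay between both young groups and aged WT, with no overlap. The rise was 3.17 ± 0.15 in WT (with an adjusted p of 1.15e-09) and 2.81 ± 0.15 in KO (with an adjusted p of 4.29e-09), with an interaction that was not called (-0.36 ± 0.22, adjusted p of 0.176). With DESeq2 the rise of Krt5 was 3.87 in WT and 3.93 in KO. Krt5 in aged KO lay under aged WT by 0.87 (with an adjusted p of 0.000228). The lower value in young KO (-0.51 ± 0.15, adjusted p of 0.0401) was not called with TMM over all 12 libraries (0.077), nor without replicate 2 or 3 of young WT, replicate 1 or 2 of aged WT or any replicate of young KO (0.0538 to 0.161). A pseudocount of 1, no filter, quantile scaling, edgeR and a fit of only the young libraries lost this call too (0.0668 to 0.171). The interaction of Krt5 was called without replicate 2 of young WT (0.0428) and with a pseudocount of 1 (-0.47, adjusted p of 0.03745).

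Krt14, the type I partner of keratin 5, followed a different course in KO. Krt14 (chromosome 11, 100203161 to 100207510, minus strand) was 9.42, 14.5 and 16.1 CPM in young WT and 56.3, 58.5 and 59.4 CPM in aged WT. The KO libraries had 21.2, 19.4 and 23.7 CPM at 2 months and 25.1, 26.8 and 27.3 CPM at 12 months. The KO ages were adjacent without overlap, and all KO libraries lay between the WT ages. Krt14 rose in WT by 2.11 ± 0.15 (with an adjusted p of 3.38e-08), while its change in KO was 0.30 ± 0.15 (with an adjusted p of 0.0872). Replicate 1 of young WT was the lowest of its group for Krt14, Krt17 and Lamb3, and without it the KO change of Krt14 passed (with an adjusted p of 0.00302), as it did with quantile scaling (0.0223), DESeq2 (0.0254) and a fit of only the KO libraries (0.0104). The interaction was -1.82 ± 0.21 (with an adjusted p of 5.91e-06). Unlike Krt5, Krt14 was higher in KO than in WT at 2 months (0.69 ± 0.15, adjusted p of 0.00572), and it was lower at 12 months (-1.12 ± 0.15, adjusted p of 1.36e-05).

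Krt17, a type I keratin of basal and appendage epithelia that is also induced in activated epithelium, rose in WT and was not called in KO. On chromosome 11 (100256216 to 100260989, minus strand), Krt17 was 1.67, 4.04 and 4.21 CPM in young WT and 44.4, 43.7 and 46.1 CPM in aged WT. It was 3.30, 4.12 and 5.58 CPM in young KO and 4.56, 5.55 and 6.97 CPM in aged KO, and these groups overlapped. The age change was 3.65 ± 0.26 in WT (with an adjusted p of 3.98e-08) and 0.37 ± 0.26 in KO (with an adjusted p of 0.22; 0.0499 without replicate 1 of young WT). The interaction for Krt17 was -3.29 ± 0.36 (with an adjusted p of 4.55e-06). KO and WT were not called different at 2 months (0.40 ± 0.26, adjusted p of 0.338), and KO was lower at 12 months by 2.88 (with an adjusted p of 3.42e-07).

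Reads can be shared among keratin genes, and how the submitters treated multiply mapped reads is not given in the sources used here. Of all 50-base words in its longest GENCODE vM21 transcript, Krt14 shared 14.4% with transcripts of other genes, mostly with Krt16 (11.4%). Krt5 shared 8.52%, mostly with Krt6a (6.98%), Krt17 shared 4.0%, mostly with Krt14, and Krt15 shared 0.666%. Krt16, a keratin of activated epidermis, had group means of 0.159 to 0.257 CPM and did not pass the filter. Krt6a, its type II counterpart, went up in WT from 1.78 to 8.51 CPM and in KO from 2.03 to 5.45 CPM (with an adjusted p of 2.12e-08 and 2.29e-06). The 4 keratin members' levels are uncertain to the extent of these shared words. Acta2 and Myh11 shared 0.353% and 0.40%, and Lamb3, Oxtr and Trp63 shared 0%. An annotated miRNA gene lies over 5.87% of the Krt5 exonic bases on the other strand.

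Ratios within a library do not depend on how libraries were scaled, and they are given without a test. Krt5 per Krt14, both per kb, was 0.0355 to 0.0575 in the young WT libraries and 0.0104 to 0.0187 in young KO, and reached 0.14 to 0.161 and 0.155 to 0.205 at 12 months. In both genotypes the partner keratins thus stood closer to each other at 12 months, with no overlap of the ages. Krt17 per Krt14 was 0.846 to 0.893 in aged WT and 0.176 to 0.315 over the libraries of the other groups. Krt14 per Krt18, a basal over a luminal keratin, was 0.0914 to 0.14 in young WT and 0.0392 to 0.0449 in aged WT. In KO the same ratio was 0.115 to 0.142 at 2 months and 0.169 to 0.193 at 12 months. Krt14 thus stood lower against Krt18 in aged WT and higher in aged KO than at the younger age, without overlap. Krt18 itself was 93.2 ± 8.64 CPM in young WT, 1150.4 ± 86.5 in aged WT, 135 ± 11.7 in young KO and 119 ± 2.64 in aged KO.

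**Figure D2:**
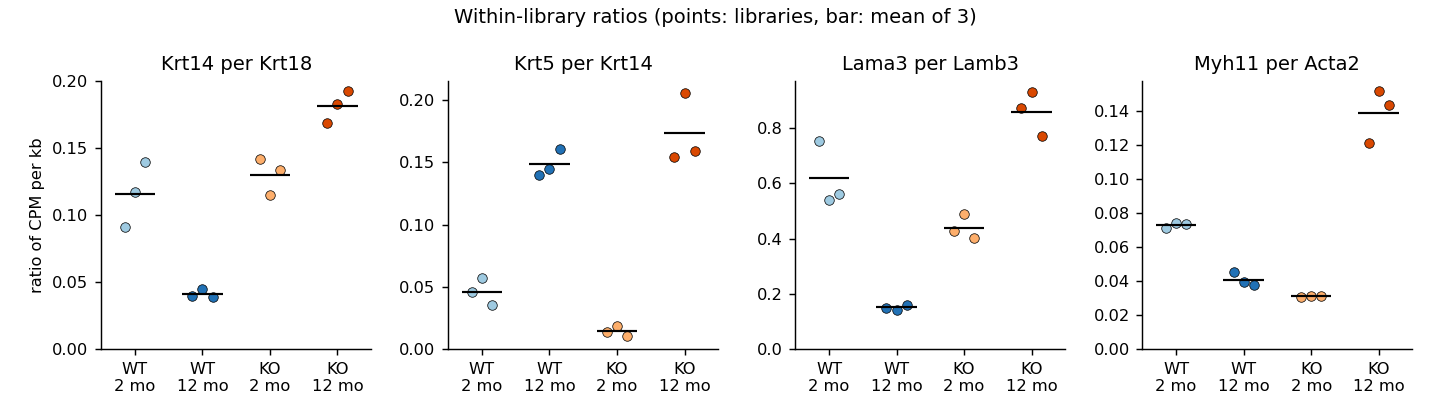
Ratios of CPM per kb of exonic length within each library (vertical axes, linear, from 0), with the mean of the 3 libraries per group as a bar. Krt5 per Krt14 is higher at 12 months in both genotypes, Krt14 per Krt18 and Myh11 per Acta2 are highest in aged KO, and Lama3 per Lamb3 is lowest in aged WT.

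Lamb3 encodes the beta 3 chain, which is found in laminin-332. Lamb3 (chromosome 1, 193301993 to 193343878, plus strand) was 13.7, 18.4 and 18.2 CPM in young WT and 119, 125 and 130.3 CPM in aged WT. Its KO values were 21.7, 20.5 and 22.8 CPM at 2 months and 17.7, 20.5 and 17 CPM at 12 months. The highest library outside aged WT was thus at 22.8 CPM. Lamb3 rose in WT by 2.87 ± 0.11 (with an adjusted p of 6.65e-11) and changed by -0.23 ± 0.11 in KO (with an adjusted p of 0.0667; 0.0114 without replicate 1 of young WT, 0.0285 without replicate 2 of aged KO, and 0.0354 with only the KO libraries fitted). Its interaction was -3.10 ± 0.15 (with an adjusted p of 2.24e-09). KO was lower at 12 months by 2.73 (with an adjusted p of 1.18e-10) and higher at 2 months (0.37 ± 0.11, adjusted p of 0.0292), a call lost without replicate 1 of young WT (0.0554), replicate 1 of young KO (0.0844) or replicate 3 of young KO (0.109), or with only the young libraries fitted (0.0768).

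Lama3, the alpha 3 chain of laminin-332, was 16.5 ± 0.279 CPM in young WT and 30.7 ± 2.82 in aged WT, 15.4 ± 0.771 in young KO and 25.8 ± 4.87 in aged KO, and rose in WT by 0.87 ± 0.11 (with an adjusted p of 1.45e-05) and in KO by 0.71 ± 0.11 (with an adjusted p of 7.95e-05). Per kb, Lama3 per Lamb3 was 0.143 to 0.161 in aged WT and 0.77 to 0.93 in aged KO, so the ratio of these chains did not overlap between those groups. Of the 11 laminin chain genes, Lamb3 included, 7 were called higher and 2 lower in aged WT, and 7 higher and 0 lower in aged KO. Lama5, the alpha chain of another epithelial laminin, rose in both, from 11.4 to 118 CPM in WT and from 7.26 to 23 CPM in KO (with an adjusted p of 6.21e-10 and 8.17e-07). Among 10 genes of hemidesmosomes and laminin receptors, 5 rose and 0 fell in WT, and 6 rose and 2 fell in KO. Itgb4, the integrin chain that binds laminin-332, rose in WT from 5.08 to 44.1 CPM (with an adjusted p of 8.56e-10) and had 6.12 CPM in young and 6.27 CPM in aged KO (with an adjusted p of 0.854). Dst, whose epithelial product links hemidesmosomes to keratins, rose in KO from 399.8 to 981 CPM (with an adjusted p of 9.16e-10) and was 456 and 478 CPM in WT (with an adjusted p of 0.373). All transcripts of Dst are summed in these values, so they do not single out the epithelial product.

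**Figure D3:**
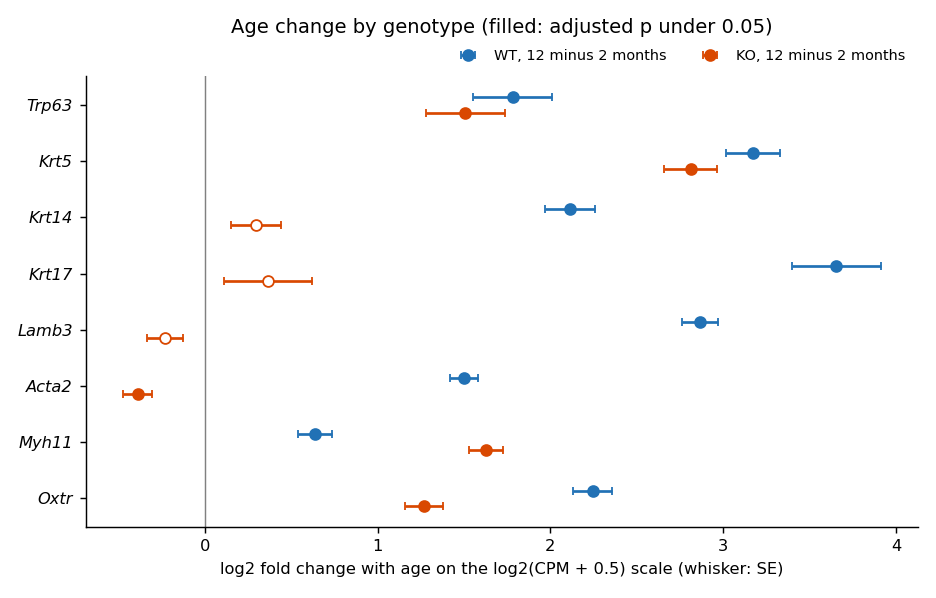
Log2 fold change with age (horizontal axis, 12 minus 2 months) of the 8 tested members in WT and KO, with the SE as whiskers and filled points for adjusted p under 0.05. The WT points all lie above 0, and the KO points run from -0.39 for Acta2 to 2.81 for Krt5.

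The 2 contractile members parted in KO. Acta2 encodes smooth muscle actin, the main thin-filament protein of myoepithelial cells. Acta2 (chromosome 19, 34240335 to 34255373, minus strand) was 30.6, 32.8 and 29.5 CPM in young WT and 90.6, 84.1 and 90.3 CPM in aged WT. In KO it was 37.2, 37.2 and 30.9 CPM at 2 months and 29.1, 25.2 and 25.7 CPM at 12 months. It rose with age in WT by 1.5 ± 0.08 (with an adjusted p of 3.34e-09) and fell by 0.39 in KO (with an adjusted p of 0.000917), without overlap of the ages in either genotype. The interaction for Acta2 was -1.89 ± 0.12 (with an adjusted p of 1.85e-08). KO and WT overlapped at 2 months (0.18 ± 0.08, adjusted p of 0.179; 0.0479 without replicate 3 of young KO, 0.0258 with DESeq2 and 0.0457 with edgeR), and KO was lower at 12 months by 1.71 (with an adjusted p of 7.27e-10).

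Myh11 encodes the smooth muscle myosin heavy chain, the motor that pulls on these filaments. Myh11 (chromosome 16, 14194526 to 14291408, minus strand) was 7.53, 8.43 and 7.49 CPM in young WT and 14.2, 11.5 and 11.7 CPM in aged WT. It was 3.98, 4.02 and 3.37 CPM in young KO, the lowest of the 4 groups, and 12.2, 13.2 and 12.7 CPM in aged KO, which overlapped aged WT. Myh11 rose in WT by 0.64 ± 0.10, at an adjusted p of 8.71e-05, and in KO by 1.63 ± 0.10, at an adjusted p of 9.93e-09, and was the member with a called positive interaction (0.99 ± 0.14, adjusted p of 4.34e-05). Between genotypes, young KO lay under young WT (-0.96 ± 0.10, adjusted p of 3.48e-05) and the aged groups were not called different (0.03 ± 0.10, adjusted p of 0.775; 0.0209 with quantile scaling). Per kb, Myh11 was 0.0712 to 0.0743 of Acta2 in young WT, 0.0376 to 0.0452 in aged WT, 0.0308 to 0.0315 in young KO and 0.121 to 0.151 in aged KO. The groups did not overlap in this ratio, which was lower at the older age in WT and higher in KO.

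Of 22 tested contractile genes, Acta2 and Myh11 among them, 14 were called higher and 4 lower with age in WT, against 9 higher and 9 lower in KO. Their median log2 fold change was 0.52 in WT and -0.01 in KO. Several rose in WT and not in KO, as Acta2 did. Myl9, a regulatory myosin light chain, rose in WT from 2.89 to 6.96 CPM and fell in KO from 3.56 to 1.96 CPM (with an adjusted p of 2.95e-07 and 2.22e-05). Tpm1, a tropomyosin gene, rose in WT from 279 to 749 CPM and fell in KO from 299.6 to 209 CPM (with an adjusted p of 7.56e-11 and 1.71e-06). Tagln, an actin-binding smooth muscle gene, rose in WT by 1.47 ± 0.09 (with an adjusted p of 8.85e-09) and was not called in KO (0.01 ± 0.09, adjusted p of 0.921). Mylk and Mcam rose in both genotypes, as Myh11 did, with called positive interactions. Mylk, the kinase that switches smooth muscle myosin on, rose from 13.9 to 17.1 CPM in WT and from 7.63 to 18.8 CPM in KO (with an adjusted p of 0.00236 and 3.58e-09), with an interaction of 0.96 ± 0.10 (with an adjusted p of 1.73e-06). Mcam, a surface protein of smooth muscle and pericytes, rose in WT by 1.15 and in KO by 1.58 (with an adjusted p of 2.4e-08 and 1.25e-09). Des, the muscle intermediate filament gene, followed neither, as it fell in WT from 49.2 to 13.4 CPM and rose in KO from 14.9 to 34.6 CPM (with an adjusted p of 5.25e-07 and 3.81e-05). Cnn1, the smooth muscle calponin gene, which passed the filter through aged WT, had 0, 8 and 3 reads in the young WT libraries and 131, 82 and 66 in those of aged WT. In KO its reads were 2, 5 and 7 at 2 months and 24, 27 and 49 at 12 months, and it rose in both genotypes (with an adjusted p of 1.32e-08 and 0.000124). The interaction of Cnn1 was -1.31 ± 0.19 (with an adjusted p of 5.22e-05) on the log2(CPM + 0.5) scale, which compresses low values. As Cnn1 was admitted through the group in which it was highest, these values support no direction.

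**Figure D4:**
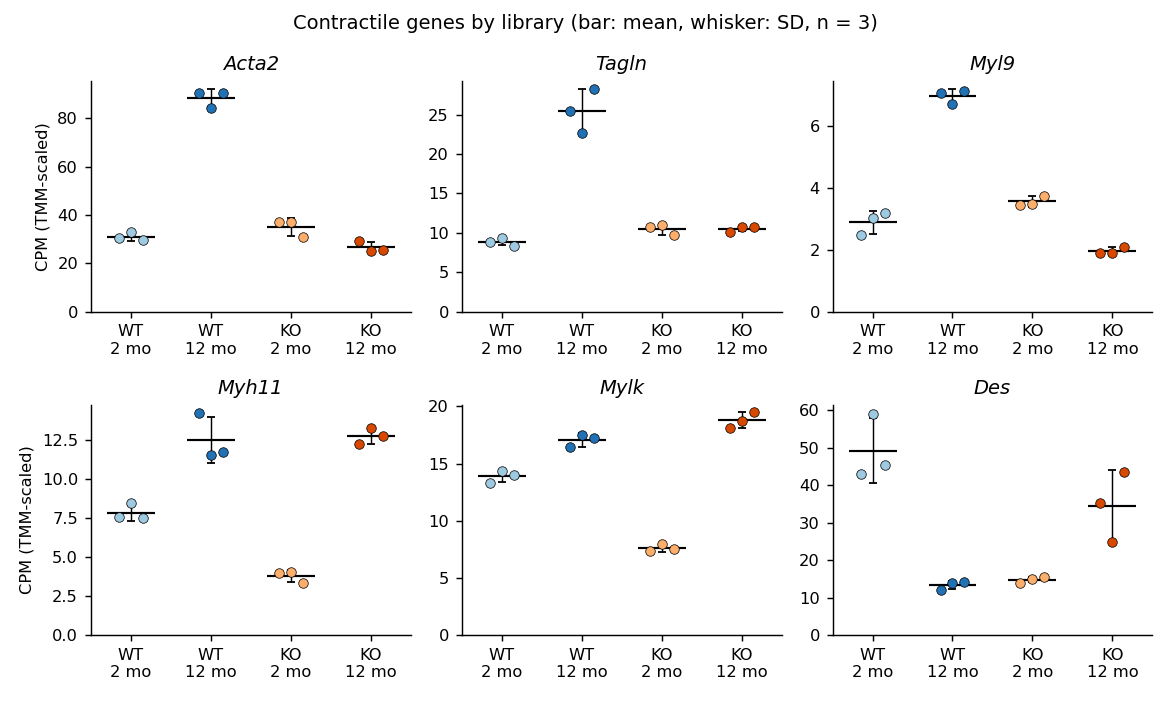
Deposited CPM (vertical axes, linear, from 0) of 6 contractile genes in each library, with the mean and SD of the 3 libraries per group. Acta2, Tagln and Myl9 are highest in aged WT, Myh11 and Mylk are lowest in young KO and high at 12 months in both genotypes, and Des is lowest in aged WT and young KO.

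Oxtr, the receptor through which oxytocin makes myoepithelial cells contract, was rare at 2 months. On chromosome 6 (112473683 to 112489808, minus strand), Oxtr had 19, 22 and 28 reads in young WT, or 0.466, 0.451 and 0.589 CPM, and 4.24, 3.92 and 4.58 CPM in aged WT. In young KO it had 7, 9 and 5 reads, or 0.189, 0.194 and 0.129 CPM, and in aged KO 0.994, 1.25 and 1.11 CPM. No groups overlapped, and their order was young KO, young WT, aged KO and aged WT. Oxtr rose in WT by 2.24 ± 0.11, at an adjusted p of 1.27e-09, and in KO by 1.27 ± 0.11, at an adjusted p of 3.46e-07. With a pseudocount of 1, of 0.1 and with DESeq2 the rise of Oxtr was 1.80, 2.86 and 3.15 in WT and 0.85, 2.17 and 2.74 in KO. The interaction of -0.97 ± 0.16 (with an adjusted p of 0.000143) was on the log2(CPM + 0.5) scale, which compresses low values, and edgeR and DESeq2 on recovered reads gave -0.47 and -0.41 without a call (with an adjusted p of 0.299 and 0.434). Young KO lay under young WT (-0.58 ± 0.11, adjusted p of 0.00324) and aged KO under aged WT (-1.55 ± 0.11, adjusted p of 3.73e-08). Of 21 tested genes of oxytocin receptor signalling, Oxtr included, 10 rose and 5 fell in WT, and 14 rose and 1 fell in KO. Itpr1, an IP3 receptor that releases stored calcium, rose from 48.2 to 123 CPM in WT and from 46.2 to 76.9 CPM in KO (with an adjusted p of 3.65e-11 and 1.54e-08). Plcb4, a phospholipase C that makes IP3, rose in WT from 12.9 to 15.5 CPM (with an adjusted p of 0.0219) and in KO from 8.0 to 19.3 CPM (with an adjusted p of 4.26e-08). Oxt, which encodes the hormone, had 0 reads in all 12 libraries.

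Between genotypes at 12 months, 7 of the 8 tested members were lower in KO and Myh11 was not called, beside 38.9% of all genes called lower, 31.3% higher and 70.2% either way; 7 were lower without overlap, beside 41.0% of all genes lower, 32.9% higher and 73.9% either way. At 2 months Krt14 and Lamb3 were higher in KO and Trp63, Krt5, Myh11 and Oxtr lower, beside 1.86% of all genes called higher, 14.2% lower and 16.1% either way. The same 6 did not overlap, beside 4.61% of all genes higher, 27.5% lower and 32.1% either way. That background depends on the scaling. The median of all genes at 2 months was -0.09 with the deposited scaling and 0.02 with quantile scaling, and higher calls were 11.5% of all calls with the deposited scaling, 29.2% with TMM over all 12 libraries and 39.6% with quantile scaling. In the interaction 5 members had a called negative value and 1 a positive one, beside 26.2% and 31.4% of all genes, and 57.7% either way. With age in WT higher calls were 38.6% of all calls, and 50.9% with edgeR on recovered reads.

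Other genes of the basal layer were read from a list that also holds 5 of the members. Of its 25 tested genes, aged WT had 16 higher and 5 lower, and aged KO had 17 higher and 2 lower than the young libraries. At 12 months 10 were higher and 15 lower in KO than in WT. The 25 listed genes that are not members, tested or not, summed to 2738 to 2827 CPM in young WT and 2177 to 2222 in aged WT. In KO their sum was 2634 to 2713 CPM at 2 months and 4936 to 5143 at 12 months. The sum thus moved otherwise than most members did. It gives more weight to abundant genes, so it does not describe each listed gene. Among those higher in aged KO than in aged WT, Vcan, Pdpn and Axl (1.37, 1.43 and 1.58) had the smallest p. Among those lower, these were Sox10, Pkp1 and Dll1 (-3.60, -2.75 and -2.15). Vcan and Axl were also among the 5 that were lower with age in WT (-0.76 and -0.64). Which genes carried the sum was not tested. Sox10, a factor of basal and progenitor cells, went from 3.16 ± 1.02 to 50.2 ± 1.53 CPM in WT (with an adjusted p of 1.33e-10) and was 4.06 ± 0.218 and 3.69 ± 0.381 CPM in KO (with an adjusted p of 0.481). Cdh3, the basal P-cadherin gene, which also passed the filter through aged WT, rose in WT from 0.0643 to 2.28 CPM and in KO from 0.123 to 0.662 CPM (with an adjusted p of 2.65e-09 and 2.53e-05). Snai2, a repressor used by basal and by mesenchymal cells, fell in WT from 18 to 7.12 CPM and in KO from 15.3 to 10.4 CPM (with an adjusted p of 4.01e-07 and 0.000974). Of 21 tested genes known as p63 targets, Krt5 and Krt14 among them, 17 rose and 1 fell in WT, and 14 rose and 1 fell in KO, with medians of 2.13 and 0.75. Perp, a desmosomal protein, rose from 14.9 to 237 CPM in WT and from 17.6 to 42.6 CPM in KO (interaction -2.70 ± 0.12, adjusted p of 1.65e-09). Klf4, a factor of epithelial barriers, rose more in KO, from 10.2 to 98.4 CPM, than in WT, from 12.4 to 21.2 CPM (interaction 2.45 ± 0.11, adjusted p of 1.5e-09). Perp and Klf4 are also used by luminal and other epithelial cells.

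**Figure D5:**
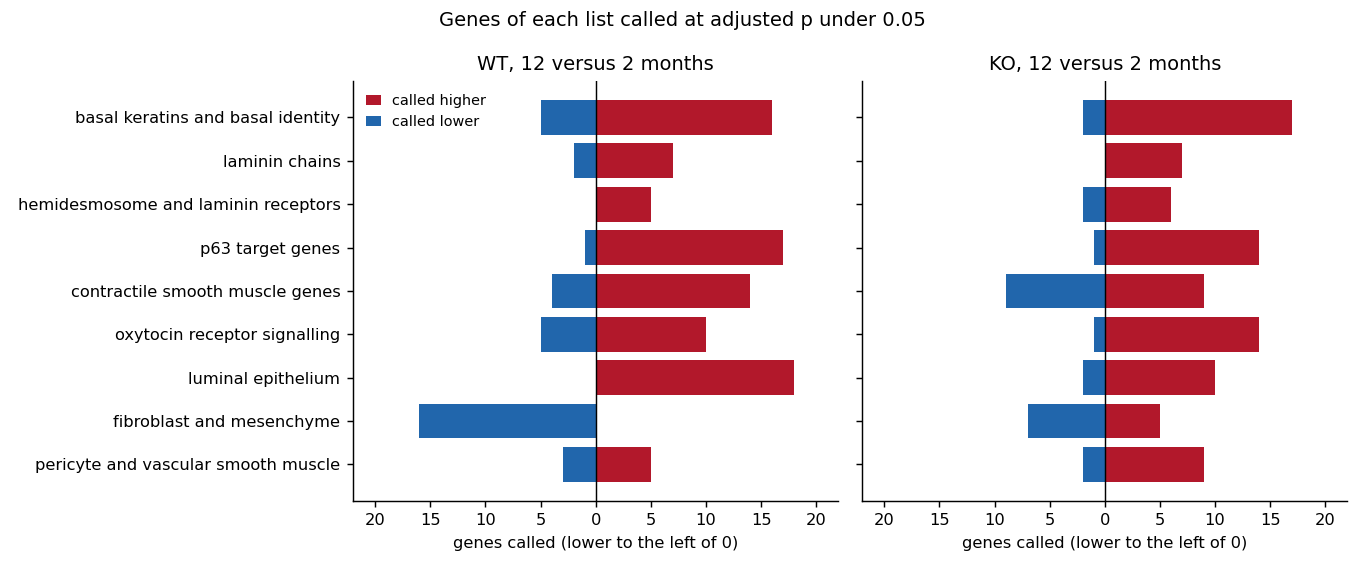
Number of genes (horizontal axis, higher to the right of 0 and lower to the left) of 9 lists called at adjusted p under 0.05 with age in WT and in KO. Luminal genes have 18 rises in WT and 10 in KO, fibroblast genes 16 falls and 7, and contractile genes 14 rises in WT and equal numbers of rises and falls in KO.

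Markers of other cells moved in the same libraries, and their part in the values of the members was not tested. The summed CPM of 19 luminal genes was 434 to 506 in young WT, 4623 to 4742 in aged WT, 547 to 623 in young KO and 676 to 729 in aged KO, and 18 of the 19 rose with age in WT. The 16 fibroblast and mesenchymal genes summed to 15624 to 16834, 10345 to 10551, 14587 to 15853 and 14854 to 16322 CPM in that order, and all 16 fell with age in WT while 5 rose and 7 fell in KO. Dcn, a fibroblast proteoglycan gene, was 3341 and 1679 CPM in WT and 2525 and 4137 CPM in KO. For pericytes and vascular smooth muscle, which also contain Acta2 and Myh11, 13 genes summed to 368 to 400, 500 to 507, 354 to 377 and 887 to 923 CPM. Of the 12 tested, 9 rose and 2 fell with age in KO, and 5 rose and 3 fell in WT. Rgs5, a pericyte gene, fell in WT from 5.95 to 3.25 CPM and rose in KO from 3.67 to 8.49 CPM (with an adjusted p of 0.000121 and 3.74e-06). The 14 skeletal muscle genes summed to 1286 to 1523, 252 to 271, 391 to 438 and 953 to 1783 CPM. With age 13 of the 13 tested fell in WT, and 8 rose and 2 fell in KO. The 10 endothelial genes summed to 145 to 162, 165 to 174, 102 to 105 and 392 to 433 CPM, and 3 rose and 1 fell in WT while 10 rose in KO. No gene of the luminal, fibroblast, pericyte, muscle or endothelial lists was at 0 reads in a whole group. In the list of cornified epidermis, Krt2, Dsg1a and up to 2 others were at 0 reads in all libraries of a group, and of 4 tested genes 2 rose and 2 fell with age in each genotype. The 9 leukocyte genes summed to 90.7 to 274 CPM over the 12 libraries, with Cd3e at 0 reads in all groups but aged KO, and of 6 tested 2 fell in WT and 6 in KO.

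The genes with the most similar course over the 12 libraries are given as a description, and the points of each correlation fall into the 4 groups. By Pearson's r of log2(CPM + 0.5), Krt5 was most like Ly6e (0.995), Sdc4 (0.992) and Flt4 (0.992), and Oxtr most like Lcn2 (0.996), Amigo2 (0.996) and Gjb2 (0.995). Lamb3 was most like Krt18 (0.996), Lsr and Ptpn18 (0.995 each), and Krt17 most like Pkp3 (0.990), Chmp4c (0.989) and Bik (0.988). Acta2 was closest to Itgb6 (0.993), Nkd2 (0.991) and Usp43 (0.990), Myh11 to Slc44a1 (0.989), Arhgef37 (0.980) and Mylk (0.977), Krt14 to Sfn (0.970), Pxdc1 (0.968) and Pla2g16 (0.967), and Trp63 to Chi3l1, 1700025G04Rik (0.983 each) and Gdpd1 (0.977). Among the members, Trp63 and Oxtr had an r of 0.948 and Lamb3 and Acta2 0.970, against 0.297 for Acta2 and Myh11.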

How the data were processed

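Total RNA of 12 mammosphere libraries was isolated with the PicoPure kit and made into TruSeq Stranded total RNA libraries, per the labels' protocols. The submitters' processing notes name TopHat2 2.1.0, Bowtie2 2.2.4, SAMtools 0.1.18 and HTSeq 0.6.1p1, with mm10 as the genome. Annotation, strand setting and handling of reads with several hits: not given in the sources used here. Per the file headers, the deposited signal values are CPM that the authors scaled with edgeR's TMM factors.

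Dividing each value by the CPM of 1 read gave whole reads, within 0.1 of a read, for 100% of the values above 0. The floor of 3 reads covers counting error only. The main test was limma 3.58.1 in R 4.3.3, with its trend option and 1 mean per group, on log2(CPM + 0.5) of all 12 libraries for genes averaging 0.5 CPM or more. P-values were adjusted by Benjamini-Hochberg over 13961 genes within each of 5 comparisons. The edgeR 4.0.16 quasi-likelihood test and DESeq2 1.42.0 were run on the recovered reads as alternatives. The 3 tools were tested on simulated data.

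The deposited columns do not share 1 TMM scale: TMM over all 12 libraries changed the mean library size of 2-month WT by 0.04 log2, and of 12-month WT, 2-month KO and 12-month KO by -0.03, -0.05 and -0.05. Exonic lengths and shared 50-base words are from GENCODE vM21 (GRCm38, which is mm10), and promoters from RefSeq, where 5 of the 9 genes had an entry. The members, lists, naming rule and tests were chosen with earlier results of these data known. The text names the 9 members, a laminin partner and a set of contractile and marker genes whatever their result, and from each list up to 3 called genes per comparison and direction with the smallest p; Krt16 was added after its values were seen, because it shares words with Krt14. Some genes the rule allows are not reported here. Lists of cofactors of serum response factor (9 tested; 3 higher and 4 lower with age in either genotype) and of all keratins (of 13 tested, 10 rose and 2 fell in WT, 5 rose and 3 fell in KO) were also read.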

Additional observations from a re-analysis of the deposited data

Results flagged for a closer look

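Of the 8 tested members, 6 had an age change that differed between WT and KO by the test of the interaction in limma (the log2 change with age in KO minus that in WT, adjusted over all genes). The value was -1.82 for Krt14, -3.29 for Krt17, -3.10 for Lamb3, -1.89 for Acta2 and -0.97 for Oxtr, where the change was more positive in WT. Among these Acta2 fell in KO, Oxtr rose there, and Krt14, Krt17 and Lamb3 were not called there. For Myh11 it was 0.99, with the larger rise in KO. Over all genes 57.7% passed this test. Oxtr lost the call with both count models.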

How the results depend on the processing

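The 8 tested members gave 862 values under up to 22 other settings (pseudocounts of 0.1 and 1, no filter and a filter at a mean of 2 CPM, TMM over all 12 libraries, quantile scaling, DESeq2, edgeR, only the 2 groups compared, the replicate block, and each library left out), of which 805 kept direction and side of the threshold, 33 lost a call, 16 gained one and 8 changed sign, none of these 8 a called value. Leaving out a library of neither compared group cannot alter a log2 fold change between 2 groups. Nor can a change of filter, the replicate block or a fit of only the 2 groups. Part of the 805 values thus kept their direction by construction. The interaction of Trp63 was 0.0563 with a pseudocount of 0.1, 0.351 with DESeq2 and 0.242 with edgeR, that of Krt5 was 0.0576 with DESeq2 and 0.0045 with edgeR, and the cause was not tested. With 1 library left out, uncalled values also crossed 0: the Trp63 interaction ran from -0.534 to 0.0658, the aged genotype value of Myh11 from -0.0195 to 0.125, and the age change in KO from -0.0415 to 0.138 for Itgb4 and -0.0414 to 0.049 for Tagln. Quantile scaling turned the interaction of Shc1 (-0.115) and the young genotype value of Lama3 (0.01998; 0.00432 with edgeR). For Itpr1 the latter was 0.0288 with TMM over all 12 libraries, 0.0321 with quantile scaling, 0.031 with DESeq2 and 0.0441 with edgeR, none of them called.

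Genes called between genotypes at 2 months numbered 2245, and 1458 with TMM over all 12 libraries, 1322 with quantile scaling, 1414 with edgeR and 1407 to 3033 with 1 library left out, the lowest without replicate 1 and 1493 without replicate 3 of young KO. Members called there numbered 6, and 3 to 6 with 1 library left out, with 3 without replicate 1 of young KO. They numbered 4 with a pseudocount of 1, no filter, TMM over all 12 libraries or quantile scaling. With only the 2 groups fitted they were also 4, with edgeR 5 and with DESeq2 7. Members called with age in KO numbered 5, and 3 with the filter at a mean of 2 CPM, which tests fewer members, and 5 to 8 with 1 library left out, with 8 without replicate 1 of young WT; they were 7 with only the 2 groups fitted, and 6 without a filter, where Krt15 was added. Replicate numbers are shared by the groups, and deviations of same-numbered libraries correlated at -0.16 to 0.34. Per comparison, 2 to 4 of 6 libraries correlated best with their own number. With 3 libraries per group these values cannot decide whether the numbers pair the libraries, and the main test used no pairing. The replicate block gave 8453, 9681, 2590, 10079 and 8517 called genes in the 5 comparisons, beside 8091, 9358, 2245, 9801 and 8051 in the main fit. With the block, Krt14 (adjusted p = 0.045) and Lamb3 (0.0437) were called with age in KO. Read counts were lowest for Krt15, and for Trp63 and Oxtr at 2 months in KO.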
